A study of Mus musculus with 2 samples.

Results

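The C1q-like genes (*C1ql1*, *C1ql2*, *C1ql3* and *C1ql4*) and the cerebellin genes (*Cbln1*, *Cbln2*, *Cbln3* and *Cbln4*) were examined, 8 of the 28692 genes counted, in cells of the mouse ventral parafacial region, a part of the brainstem. The genes were chosen by symbol and their unique molecular identifiers (UMIs, 1 per captured RNA molecule) were summed in 8 cell classes, each set by 1 marker gene. The markers were *Nmb* for neurons of the retrotrapezoid nucleus (RTN), *Slc17a6* for other glutamatergic neurons, *Slc32a1* for inhibitory neurons, *Chat* for cholinergic neurons, *Aqp4* for astrocytes, *Pdgfra* for oligodendrocyte precursors, *Mog* for oligodendrocytes and *C1qa* for microglia. All 8 genes had at least 1 UMI in both libraries. The gene set was proposed with measured values of these cells known, so which class each gene leads in is given as a description.

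These genes encode small secreted proteins that share the globular domain of the complement protein C1q and assemble into multimers in the synaptic cleft. C1q-like proteins bind the adhesion receptor Adgrb3 (BAI3), and *C1ql2* and *C1ql3* products also bind neurexin 3 and kainate receptors. Cerebellins join presynaptic neurexins to postsynaptic receptors such as the one encoded by *Grid1*, and the *Cbln4* product can also bind Dcc and Neo1. In the cerebellum *C1ql1* acts at synapses of climbing fibres from the inferior olive, and *Cbln1* and *Cbln3* at those of granule cells.

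Cells came from C57BL6/J mice that were 10 days old, with 8 mice (4 male and 4 female) pooled in each of 2 libraries. The untreated library was made from wild-type mice in batch 1, and the 4OH-tamoxifen library in batch 2 from mice of the same strain given 0.2 mg per day for 3 days. No transgene or mutant allele is stated for either group. There were no replicates, so no test between conditions was made, and treatment, batch and mice cannot be told apart.

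After filtering, 3339 untreated cells with a median of 3628 UMIs and 8558 4OH-tamoxifen cells with a median of 2411 UMIs remained, and 32 filtered cell barcodes occurred in both libraries. A cell entered a class when it held the marker of that class and of no other (*Nmb* cells could also hold *Slc17a6*), which gave 1845 and 4785 cells. A further 1054 and 2357 cells held markers of several classes and were left out. The neuronal classes were therefore small, with 12 untreated and 35 4OH-tamoxifen cells in *Nmb*, 5 and 56 in *Slc17a6*, 43 and 184 in *Slc32a1*, and 12 and 52 in *Chat*. The glial classes held 884 and 2103 cells in *Aqp4*, 257 and 728 in *Pdgfra*, 417 and 1270 in *Mog*, and 215 and 357 in *C1qa*. A second grouping, by Leiden clusters named from marker genes with the ending "-like", kept cells that hold several markers. The *Slc32a1* class lay 93.0% and 91.8% in inhibitory-like clusters, and the *C1qa* class 94.0% and 95.5% in microglia-like clusters. The *Aqp4* class was less pure, with 71.7% and 67.5% of its cells in astrocyte-like clusters, and the *Mog* class lay 49.2% and 54.8% in oligodendrocyte-like clusters. The *Slc17a6* class was mixed, with 3 of 5 and 38 of 56 cells in neuron clusters of no named type and, with 4OH-tamoxifen, 16.1% in cholinergic-like and 12.5% in inhibitory-like clusters and 1 cell in the granule-like cluster.

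The paralogs are distinct in their coding sequences. Aligned coding bases were identical at 68.5% of positions between *C1ql1* and *C1ql2*, 74.0% between *C1ql1* and *C1ql3*, and 71.5% between *Cbln1* and *Cbln2*, the closest pair of each family being the last 2 of these. Identity between a C1q-like and a cerebellin gene reached 54.6% at most. The last 60 coding bases before the stop codon, from GENCODE M21 transcripts, are shown for the 4 C1q-like genes and 3 of the cerebellin genes, so that the differences between paralogs can be read, with capitals at bases where the 4 C1q-like genes are not all alike:
C1ql1: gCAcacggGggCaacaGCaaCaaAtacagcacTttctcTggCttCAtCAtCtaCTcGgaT
C1ql2: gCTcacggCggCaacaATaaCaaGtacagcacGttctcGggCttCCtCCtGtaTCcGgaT
C1ql3: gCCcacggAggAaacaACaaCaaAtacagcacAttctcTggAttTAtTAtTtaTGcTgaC
C1ql4: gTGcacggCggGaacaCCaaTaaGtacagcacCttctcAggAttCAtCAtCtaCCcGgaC
Of these 60 bases, 20 varied among the C1q-like genes. The same stretch for the cerebellin genes shown varied at 22 bases, again in capitals:
Cbln1: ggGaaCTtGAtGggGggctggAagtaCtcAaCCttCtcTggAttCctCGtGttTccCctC
Cbln3: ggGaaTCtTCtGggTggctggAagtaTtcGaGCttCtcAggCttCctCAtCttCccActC
Cbln4: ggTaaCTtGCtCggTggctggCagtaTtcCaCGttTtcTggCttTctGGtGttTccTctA

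In GRCm38, *C1ql1* (ENSMUSG00000045532) lies on chr11:102939264-102946688 on the minus strand, and *C1ql2* (ENSMUSG00000036907) on chr1:120340582-120343174 on the plus strand. *C1ql3* (ENSMUSG00000049630) lies on chr2:13003457-13011806 and *C1ql4* (ENSMUSG00000001076) on chr15:99084086-99087817, both on the minus strand. *Cbln1* (ENSMUSG00000031654) lies on chr8:87468405-87472609, *Cbln3* (ENSMUSG00000040380) on chr14:55878913-55884392 and *Cbln4* (ENSMUSG00000067578) on chr2:172036233-172043466, all on the minus strand. Genes on the opposite strand overlap *C1ql1* (*Gm26668*), *C1ql3* (*Gm37824* and *Gm37811*) and *Cbln1* (*Gm2694*). Whether counting used strand is not given in the sources used here. In the *Pdgfra* class *Gm26668* had 0 untreated UMIs and 1 with 4OH-tamoxifen, whereas *Gm2694* had 18 and 41 UMIs.

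In the marker-gated classes *C1ql2* and *Cbln4* both had their highest level in inhibitory cells, though not in each grouping given below, and the 250 bases before their starts are shown with the E-box CANNTG, a motif that basic helix-loop-helix factors bind, in capitals. RefSeq promoter entries were matched for 5 of the 8 genes. The *C1ql2* stretch is chr1:120340332-120340581 (plus strand) and the *Cbln4* one chr2:172043467-172043716 (minus strand), from RefSeq on GRCm38.p6:
C1ql2: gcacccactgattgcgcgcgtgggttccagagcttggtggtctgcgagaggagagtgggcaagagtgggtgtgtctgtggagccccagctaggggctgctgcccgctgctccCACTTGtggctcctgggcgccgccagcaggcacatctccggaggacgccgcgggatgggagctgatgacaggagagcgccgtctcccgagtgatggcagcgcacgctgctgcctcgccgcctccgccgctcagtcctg
Cbln4: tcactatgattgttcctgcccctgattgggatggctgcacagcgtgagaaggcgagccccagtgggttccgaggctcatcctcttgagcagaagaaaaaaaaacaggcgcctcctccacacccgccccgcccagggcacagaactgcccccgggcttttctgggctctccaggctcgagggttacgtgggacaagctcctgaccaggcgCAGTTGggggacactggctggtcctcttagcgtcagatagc
Each holds 1 match to CANNTG, a palindromic motif that 66.2% of 32851 RefSeq promoter stretches of this length hold. Neither holds TATAAA on either strand (12.4% of all), and *Cbln4* alone holds GGGCGG, at 2 places counting both strands (32.7% of all have it).

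*C1ql1*, which encodes the climbing-fibre ligand of Adgrb3, was highest in oligodendrocyte precursors. In the *Pdgfra* class it stood at 1248 UMIs per 1000000 UMIs (CPM; 95% exact Poisson interval 1176 to 1324) in the untreated library and 1017 (966 to 1069) with 4OH-tamoxifen. These intervals, and the binomial and ratio intervals below, cover counting error only. At least 1 UMI was found in 86.4% of untreated and 81.5% of 4OH-tamoxifen *Pdgfra* cells, against 9.30% and 7.56% of *C1qa* cells, whose median depths were 4034 and 2256 UMIs beside 3104 and 1823 in the *Pdgfra* class. Shares were also taken after thinning to 2000 UMIs, here and below. This left out the cells under that depth, 238 untreated and 2818 4OH-tamoxifen cells over all classes. The thinned shares, which cover the deeper cells only, were 78.3% and 74.6% in the *Pdgfra* class and 4.39% and 8.47% in the *C1qa* class. The *C1qa* class, microglia that should lack the gene, held 43.2 and 45.8 CPM. This level was taken as the background of free RNA, an assumption that was not tested and that takes no account of the depth of each class. In both libraries *C1ql1* was at or below that level within counting error in the *Nmb*, *Slc32a1* and *Chat* classes. The *Mog* class had 68.3 and 53.7 CPM and the *Aqp4* class 159 and 154 CPM. In named clusters *C1ql1* had 14.4 and 26.3 CPM in *Mog*, below the 29.7 and 43.0 CPM of microglia-like cells, and 82.7 and 61.1 CPM in *Aqp4* cells. The 5 untreated *Slc17a6* cells stood apart at 234 CPM (131 to 386), 15 UMIs in 4 of the cells, against 47.3 CPM (25.2 to 80.8) in the 56 4OH-tamoxifen cells. The gate held different clusters in the libraries, and in named *Slc17a6* clusters (19 and 71 cells) *C1ql1* was at 163 and 141 CPM, a ratio of 0.864 (0.567 to 1.33).

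*C1ql2*, a ligand at hippocampal mossy fibre synapses, had 2 sites of expression, 1 neuronal and 1 glial. It was at 141 CPM (103 to 188) in the untreated and 72.6 CPM (54.8 to 94.3) in the 4OH-tamoxifen *Slc32a1* class, and at 82.8 (64.9 to 104) and 71.4 (58.6 to 86.2) CPM in the *Pdgfra* class. Inhibitory neurons led by 1.70-fold (1.15 to 2.49) in the untreated library, but the classes did not differ beyond counting error with 4OH-tamoxifen (1.02-fold, 0.723 to 1.42). In named clusters the inhibitory and precursor levels were 183 and 94.9 CPM untreated. With 4OH-tamoxifen they were 65.5 (54.0 to 78.9) and 71.8 (62.9 to 81.7) CPM, so precursors were the higher there but with overlapping intervals. At least 1 UMI was found in 37.2% and 15.8% of *Slc32a1* cells, and in 14.0% and 11.4% of thinned cells. The *C1qa* class held 0 UMIs in 215 untreated cells, which allows up to 1.40% of cells with a UMI, and 0.560% of 4OH-tamoxifen cells had a *C1ql2* UMI. *Slc17a6* cells held 0 UMIs in both libraries, which allows up to 46.8 CPM in the 5 untreated cells and 10.9 CPM in the 56 4OH-tamoxifen cells.

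*C1ql3*, which encodes an Adgrb3 ligand made by excitatory projection neurons, was shared by RTN neurons and precursors. The *Nmb* class had 322 CPM (200 to 493; 21 UMIs) in the untreated and 128 CPM (73.0 to 207; 16 UMIs) in the 4OH-tamoxifen library. The *Pdgfra* class had 136 (113 to 163) and 145 (126 to 165) CPM, and the *Slc17a6* class 93.7 (34.4 to 204) and 83.6 (53.0 to 126). With 4OH-tamoxifen the *Nmb* interval overlapped those of the *Pdgfra* and *Slc17a6* classes. In named clusters the *Nmb* class led in both libraries, at 257 and 209.7 CPM beside 140 and 161 CPM in *Pdgfra*. Inhibitory and microglial classes were at or under 14.3 CPM in both libraries. The *Chat* class held 0 UMIs in 12 untreated cells, which allows up to 40.8 CPM, and 6.22 CPM with 4OH-tamoxifen.

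*C1ql4*, a paralog that also binds Adgrb3, was near the limit of detection, with 15 UMIs among all untreated cells and 7 among all 4OH-tamoxifen cells. The *Nmb* class held 4 untreated UMIs (61.4 CPM, 16.7 to 157) and 1 4OH-tamoxifen UMI. The *Slc32a1*, *Chat*, *Mog* and *C1qa* classes held 0 in both libraries, which allows up to 9.19 and 3.89 CPM in *Slc32a1* cells.

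*Cbln2* (ENSMUSG00000024647, on the plus strand at chr18:86711110-86718283 of GRCm38), which like *Cbln1* binds neurexins, was found across all 4 neuronal classes. The untreated and 4OH-tamoxifen libraries had 138 (63.2 to 262) and 104 (55.2 to 177) CPM in *Nmb*, 98.0 (67.0 to 138) and 104 (82.2 to 129) in *Slc32a1*, 68.0 (22.1 to 159) and 62.2 (38.0 to 96.1) in *Chat*, and 62.5 (17.0 to 160) and 83.6 (53.0 to 126) in *Slc17a6*. These neighbours in order had overlapping intervals, and all stood above the *C1qa* class at 2.21 (0.268 to 8.0) and 4.58 (1.25 to 11.7) CPM. Glial classes were lower, with 18.5 and 15.7 CPM in *Mog*, 11.2 and 15.0 in *Aqp4*, and 6.81 and 9.25 in *Pdgfra*. In named clusters *Cbln2* was lower still in *Mog* (1.01 and 4.05 CPM) and *Aqp4* (2.68 and 5.20 CPM) cells, near the 2.28 and 3.59 CPM of microglia-like cells.

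*Cbln4*, the cerebellin that can bind Dcc and Neo1, was highest in the gated inhibitory class at 52.1 (30.3 to 83.4; 17 UMIs) and 54.4 (39.2 to 73.6; 42 UMIs) CPM. The *Slc17a6* class had 15.6 CPM from 1 untreated UMI and 43.6 CPM (22.5 to 76.2) from 12 4OH-tamoxifen UMIs, not beyond counting error of the inhibitory class. In named clusters the order turned in both libraries, with 46.7 (24.1 to 81.5) and 70.6 (46.5 to 103) CPM in *Slc17a6* clusters against 26.9 (16.9 to 40.7) and 42.7 (33.5 to 53.7) CPM in inhibitory-like clusters. Among the 4 glial classes, *Cbln4* reached 2.29 CPM at most.

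*Cbln1*, a synaptic ligand made by cerebellar granule cells, was sparse. It had 30.7 (3.72 to 111) and 31.9 (8.70 to 81.7) CPM in *Nmb* cells, from 2 and 4 UMIs, and 0 and 40.0 (19.96 to 71.6) CPM in *Slc17a6* cells. The latter rests on 11 UMIs in 4 of 56 cells, 8 of them in 1 cell, and in named *Slc17a6* clusters the level was 15.6 and 13.1 CPM. The *Pdgfra* class had 12.5 (6.23 to 22.3) and 13.9 (8.59 to 21.2) CPM. *Cbln3*, whose product is secreted with that of *Cbln1*, had 2 UMIs among all untreated and 17 among all 4OH-tamoxifen cells, and no gated untreated cell held any.

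**Figure D1:**
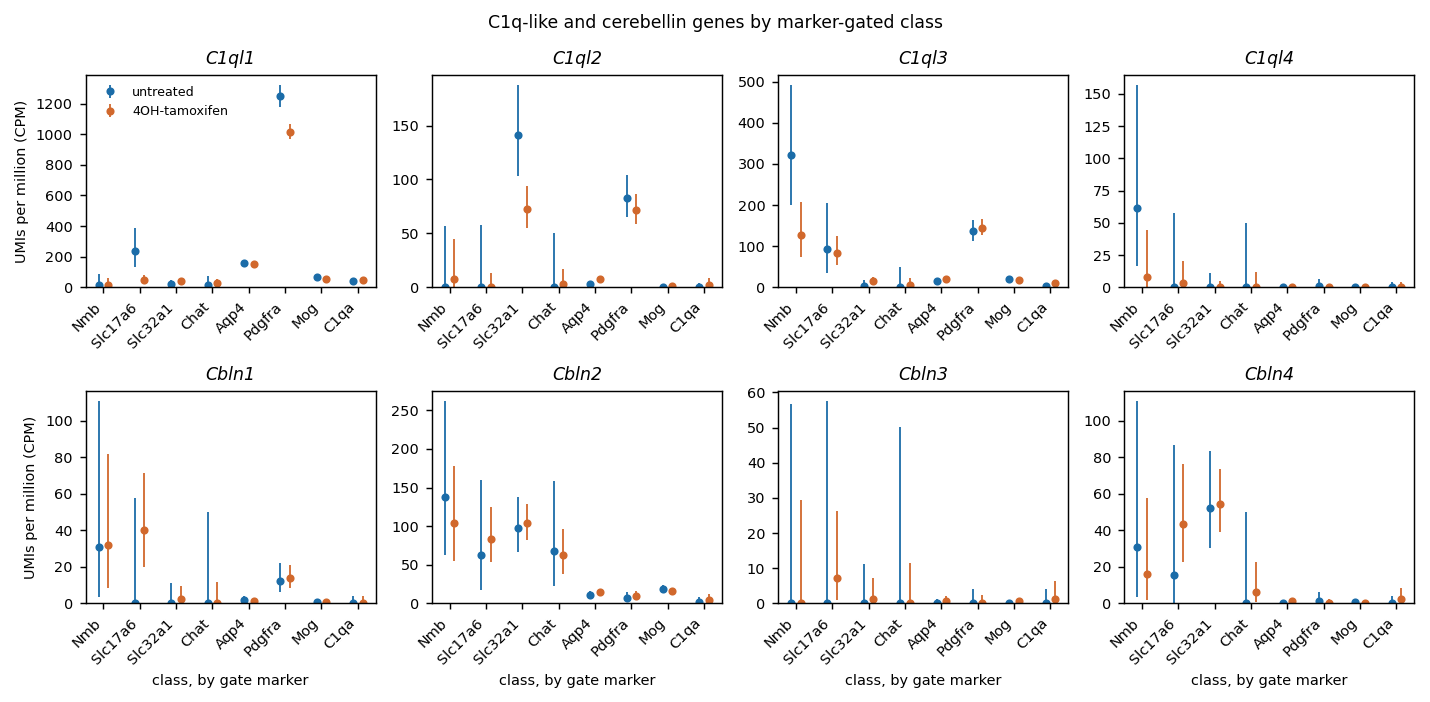
CPM of each gene (y axis, linear, scaled per panel) in the 8 marker-gated classes (x axis) of the untreated (blue) and 4OH-tamoxifen (orange) libraries, with 95% exact Poisson intervals. *C1ql1* peaks in the *Pdgfra* class at 1248 and 1017 CPM, *C1ql2* has a neuronal and a glial peak, and *Cbln2* is spread over the 4 neuronal classes.

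Of the 6 members with at least 20 gated UMIs in each library, 4 (*C1ql1*, *C1ql2*, *Cbln2* and *Cbln4*) led in the same class in both libraries, against 50.3% of the 12803 genes tested. Only *C1ql1* led at least 2-fold over the next class in both, 1 of 6, against 11.6% of genes. Between libraries, in the leading class over both, 1 of 5 members was past 2-fold, against 9.14% of 9698 genes. That gene was *C1ql3* in the *Nmb* class, at 0.396 (0.193 to 0.797) of the untreated level, and 0 members were past 2-fold above. With at most 10% mitochondrial UMIs, where *C1ql3* had 0 CPM in the untreated and 342 CPM in the 4OH-tamoxifen *Nmb* class, and after thinning to 2000 UMIs, 0 members were past 2-fold. A call needed at least 20 UMIs in the leading class over both libraries. *C1ql3* in the *Nmb* class fell short of that under the first setting and may do so after thinning. The counts of 0 therefore do not show that *C1ql3* was unchanged. Of all genes, 5.06% were past 2-fold below and 4.07% above. The other ratios of 4OH-tamoxifen to untreated were 0.814 (0.753 to 0.881) for *C1ql1*, 0.515 (0.343 to 0.778) for *C1ql2*, 0.751 for *Cbln2* and 1.05 for *Cbln4*. The median log2 ratio of the members was -0.41, beside -0.10 over all genes. When classes were taken from named clusters, *C1ql3* stood at 0.816 (0.550 to 1.21) in RTN-like cells and *C1ql2* was the member past 2-fold, at 0.357 (0.277 to 0.460) in 98 untreated and 386 4OH-tamoxifen inhibitory-like cells. The mix of those cells differed, with 39.8% and 30.3% in the cluster richest in *C1ql2*, led by *Sst*, *Lamp5* and *Gad2*, and 4.08% and 23.3% in a cluster led by *Slc6a5*, *Lamp5* and *Ndnf* that held 0 and 4 *C1ql2* UMIs. Within the first of these the *C1ql2* ratio was 0.515 (0.395 to 0.670), not past 2-fold.

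Along the oligodendrocyte lineage the members split into 2 patterns. *C1ql1*, *C1ql2* and *C1ql3* were highest in precursors, and *Cbln2* was highest in clusters with *Gpr17* and *Enpp6*, markers of cells that have left the precursor state. In the main precursor-like cluster (410 untreated and 1256 4OH-tamoxifen cells) *C1ql1* had 1556 (1489 to 1625) and 1213 (1169 to 1257) CPM. A cluster led by *Bmp4* and *Gpr17* (286 and 928 cells), left unnamed by the marker lists, had 577 and 556 CPM, a ratio of 0.371 (0.341 to 0.403) and 0.458 (0.429 to 0.490) to the precursors. A second unnamed cluster with the highest *Enpp6* (160 and 554 cells, 951 and 889 CPM of *Enpp6*) had 85.7 and 90.0 CPM of *C1ql1*. The oligodendrocyte-like clusters had 13.1 to 31.0 CPM, below or near the microglial background.

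*C1ql2* was lower than *C1ql1* in the *Gpr17* cluster relative to precursors. It had 100.02 (83.6 to 119) and 74.1 (63.5 to 85.8) CPM in the main precursor-like cluster and 2.22 and 7.48 CPM in the *Gpr17* cluster, a ratio of 0.0221 (0.00451 to 0.0662) and 0.101 (0.0575 to 0.166). *C1ql3* declined less between the same clusters, from 138 and 167 CPM to 79.7 and 106 CPM, a ratio of 0.577 (0.450 to 0.736) and 0.637 (0.541 to 0.750). These ratios depended on how the stages were set. In cells with at least 2 UMIs of *Gpr17* against cells with at least 2 of *Pdgfra*, each with the other and with *Enpp6* and *Mog* under 2 UMIs, the ratio was 0.724 (0.651 to 0.805) and 0.671 (0.618 to 0.729) for *C1ql1* and 0.272 (0.151 to 0.464) and 0.238 (0.158 to 0.353) for *C1ql2*. For *C1ql3* it was within counting error of 1 in the untreated library, at 0.9505 (0.693 to 1.30), and 0.789 (0.639 to 0.977) with 4OH-tamoxifen. *C1ql3* was also unequal between the oligodendrocyte-like clusters. The cluster led by *Hapln2* and *Klk6* had 21.4 and 23.0 CPM, against 4.53 and 10.2 CPM in the one led by *Opalin*, 4.71-fold (2.26 to 11) and 2.25-fold (1.55 to 3.30) higher.

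*Cbln2* had 6.11 (2.64 to 12) and 5.86 (3.2 to 9.83) CPM in the main precursor-like cluster, 39.9 (29.9 to 52.0) and 46.6 (38.2 to 56.4) in the *Gpr17* cluster and 97.7 (80.6 to 117) and 76.2 (65.3 to 88.3) in the *Enpp6* cluster. It was 1.02 and 4.00 CPM in the cluster led by *Hapln2* and *Klk6*, and 3.06 and 4.92 CPM in the remaining *Enpp6* cluster, led by *Tmem2* and *Rras2*. The *Enpp6* peak was thus 16-fold (7.85 to 37.9) and 13-fold (7.55 to 24.3) above precursors. It was 96.1-fold (26.0 to 803), over only 2 UMIs, and 19.0-fold (11.2 to 34.7) above the *Hapln2* and *Klk6* cluster. *Cbln2* was found in 33.8% and 23.6% of these *Enpp6* cells, against 1.13% and 0.916% of the main microglia-like cluster, and in 14.6% and 11.5% after thinning. The Poisson intervals of these *Enpp6* cells overlapped those of the *Slc32a1* class (98.0 and 104 CPM) in both libraries, but a ratio between them was not tested. Cells picked by at least 2 UMIs of only 1 of *Pdgfra*, *Gpr17*, *Enpp6* and *Mog* gave the same order of levels, with *Cbln2* at 6.38 and 13.9, 15.2 and 31.0, 144 and 48.7, and 4.91 and 3.49 CPM in turn. Only 11 untreated and 65 4OH-tamoxifen cells carried *Enpp6* alone, so their *Cbln2* rests on 4 and 12 UMIs. The step from *Pdgfra* to *Gpr17* was smaller in these cells, at 2.38-fold (0.685 to 10.4) and 2.22-fold (1.23 to 4.30), than between the clusters, at 6.53-fold (3.09 to 15.9) and 7.96-fold (4.54 to 15.1). Of the cells picked by marker, 1 *Pdgfra* cell held 7 of the 14 4OH-tamoxifen UMIs behind that step, and *Cbln2* was found in 1.62% of these *Pdgfra* and 5.83% of *Gpr17* cells. After thinning, 3.64% of the 4OH-tamoxifen *Enpp6* cells had *Cbln2*, 2 of 55, below the 6.97% of *Gpr17* cells.

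**Figure D2:**
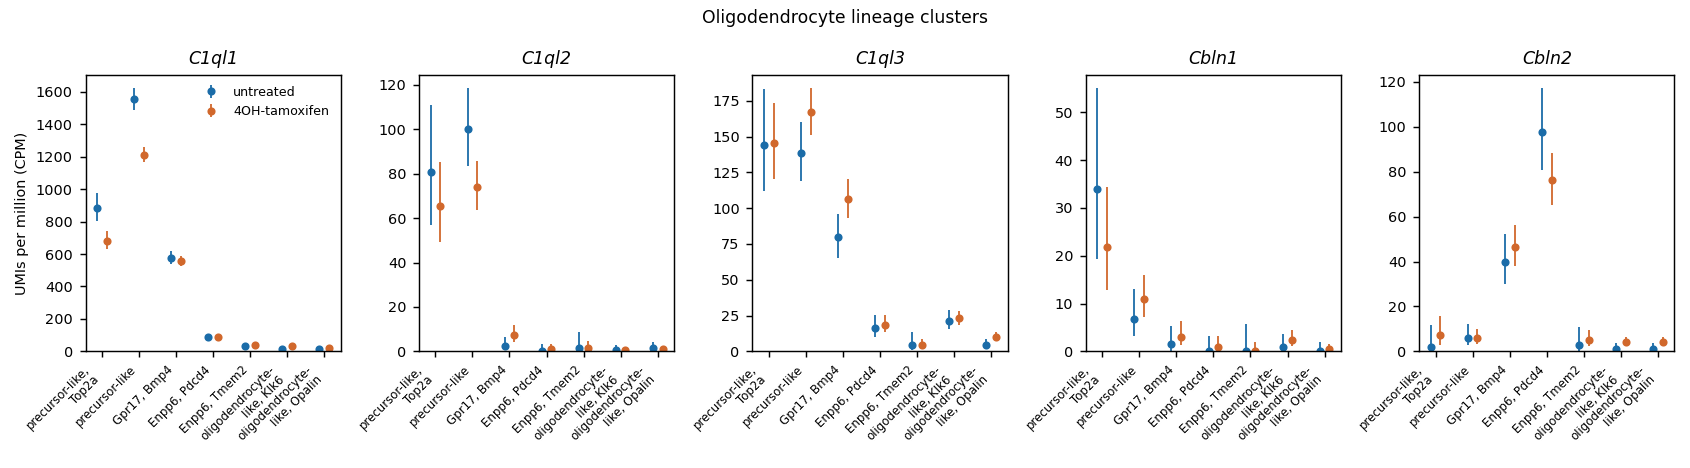
CPM (y axis, linear, scaled per panel) of 5 genes in 7 oligodendrocyte lineage clusters (x axis, named by marker or leading genes), with 95% exact Poisson intervals for the untreated (blue) and 4OH-tamoxifen (orange) libraries. *C1ql1*, *C1ql2* and *C1ql3* are highest in precursors and *Cbln2* peaks at 97.7 and 76.2 CPM in the cluster with *Enpp6* and *Pdcd4*.

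Cycling precursors differed from the others in 2 members. The precursor-like cluster led by *Top2a* and *Mki67*, genes of dividing cells, had 885 and 683 CPM of *C1ql1*, 0.569 (0.511 to 0.632) and 0.563 (0.514 to 0.617) of the main cluster. *Cbln1* instead had 34.0 (19.4 to 55.2) and 21.8 (12.9 to 34.5) CPM there, 4.94-fold (2.06 to 12.7) and 2.00-fold (1.03 to 3.8) above the main cluster. Splitting all precursor-like cells by a UMI of *Mki67* or *Top2a* gave *Cbln1* ratios of 4.11 (1.73 to 10.2) and 1.44 (0.718 to 2.77), so the difference was within counting error in the 4OH-tamoxifen library. In the *Pdgfra* class the same split gave 8.31 (1.99 to 48.6), over 3 UMIs in the cells without, and 1.03 (0.328 to 2.81). Precursor-like cells held 25 of 47 untreated and 44 of 113 4OH-tamoxifen *Cbln1* UMIs. The opposite-strand *Gm2694* was also found in the *Pdgfra* class, at 20.4 and 27.1 CPM, and in the *Mog* class at 17.3 and 23.4 CPM, where *Cbln1* was at 0.596 and 0.560 CPM. The part of *Gm2694* reads in the *Cbln1* counts was not tested.

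Among astrocyte-like clusters, *C1ql1* was higher in the one with *Gfap*. The astrocyte-like cluster led by *Myoc* and *Gfap*, an intermediate filament of fibrous astrocytes, had 242 (202 to 287) and 135 (111 to 164) CPM, and the cluster led by *Slc7a10* had 31.9 and 40.8 CPM, close to the 33.3 and 37.6 CPM of the main microglia-like cluster. The ratio between the astrocyte-like clusters was 7.58 (5.48 to 10.6) and 3.32 (2.53 to 4.35). *C1ql1* was found in 41.5% and 25.2% of the *Gfap* cluster, and in 29.6% and 28.0% after thinning, against 6.18% and 8.66% of the *Slc7a10* cluster after thinning. The 159 and 154 CPM of the *Aqp4* class stood well above the *Slc7a10* cluster, and 12% and 16% of that class lay in unnamed clusters and 2.83% and 5.23% in precursor-like clusters, which had the highest *C1ql1*. Their part in the level was not tested. Within the *Aqp4* class, cells with a *Gfap* UMI had 1.11 (0.925 to 1.34) and 0.740 (0.641 to 0.855) times the *C1ql1* of cells without, so the cluster difference was not found with this split. A small unnamed cluster of 13 and 75 cells with both astrocyte and precursor markers had 384 and 479 CPM.

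RTN-like neurons (34 untreated and 64 4OH-tamoxifen cells, with *Nmb* and *Gal*) expressed *C1ql3*, *Cbln2* and *C1ql4*. *C1ql3* stood at 257 (195 to 333) and 209.7 (157 to 275) CPM, in 64.7% and 37.5% of cells and in 33.3% and 33.9% after thinning. Microglia-like cells had a *C1ql3* UMI in 0.750% and 1.71%, at median depths of 4100 and 2366.5 UMIs beside 6324.5 and 3809.5. *C1ql3* was unequal within the group. Cells with a UMI of *Gal*, the galanin gene, had 371 and 378 CPM and those without 126 and 40.4 CPM, a ratio of 2.95 (1.56 to 5.98) and 9.37 (3.74 to 30.2). In the smaller *Nmb* class all 21 and 16 *C1ql3* UMIs were in the 9 and 13 cells with *Gal*. *Cbln2* had 158 (110 to 219) and 96.8 (62.0 to 144) CPM. It was higher with *Gal* in the 4OH-tamoxifen library (6.98-fold, 2.08 to 36.5), where the cells without *Gal* held only 3 UMIs, but in the untreated library the ratio was 0.516 (0.239 to 1.07). *C1ql3* was found in 8 of 13 and 10 of 15 *Cbln2* cells, 61.5% and 66.7%, beside the 64.7% and 37.5% of all RTN-like cells. *C1ql4* had 13 UMIs in 8 untreated cells (58.6 CPM, 31.2 to 100) and 5 UMIs in 5 4OH-tamoxifen cells (20.2 CPM, 6.55 to 47.0), which is 86.7% and 71.4% of all its UMIs. The *C1ql4* levels of the libraries had a ratio of 0.344 (0.0961 to 1.03).

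In inhibitory-like neurons the cluster with the highest *C1ql2* had low *Cbln4*. In the cluster led by *Sst*, *Lamp5* and *Gad2* (39 and 117 cells) *C1ql2* had 406 (342 to 480) and 209 (170 to 254) CPM, found in 87.2% and 42.7% of cells and in 41.0% and 24.5% after thinning. In the cluster led by *Sst*, *Igfbp5* and *Fst* (13 and 67 cells) *C1ql2* had 53.3 and 19.1 CPM, and the ratio of the first to the second was 7.62 (3.6 to 19.3) and 10.9 (4.86 to 30.5). *Cbln4* ran the other way, with 14.6 and 4.14 CPM in the first and 83.8 (41.8 to 150) and 73.3 (46.5 to 110) CPM in the second. The second held 5.73-fold (1.84 to 21.0) and 17.7-fold (4.37 to 155) more *Cbln4*, though the first held only 5 and 2 UMIs. *Cbln4* was spread more widely than this pair. The *Slc6a5*, *Lamp5* and *Ndnf* cluster (4 and 90 cells) held 0 untreated UMIs and 31 with 4OH-tamoxifen (67.7 CPM, 46.0 to 96.1), 22.5% of all in that library against 16.7% in the *Fst* cluster. The cluster led by *Pnoc* held 1 and 10 UMIs. The cluster led by *Uts2b* and *Nos1* had 21.4 and 85.2 CPM from 2 and 6 UMIs, the latter above the *Fst* cluster but within counting error of it. *Cbln2* had 155 and 93.2 CPM in the first and 129 and 124 CPM in the second, with overlapping intervals in each library. The inhibitory-like cluster led by *Uts2b* and *Nos1* (12 and 14 cells) had the highest *Cbln2* of the inhibitory-like clusters, 182 (106 to 291) and 199 (109 to 334) CPM. These rest on 17 and 14 UMIs. Their intervals hold the 155 CPM of the first cluster untreated and the 124 CPM of the second with 4OH-tamoxifen. The cluster led by *Cck* and *Dmbx1* had 52.4 and 67.8 CPM of *Cbln2*, 0 *C1ql2* UMIs and only 3 and 1 *Cbln4* UMIs in 23 and 55 cells, so low *Cbln4* was not particular to the cluster with the highest *C1ql2*.

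**Figure D3:**
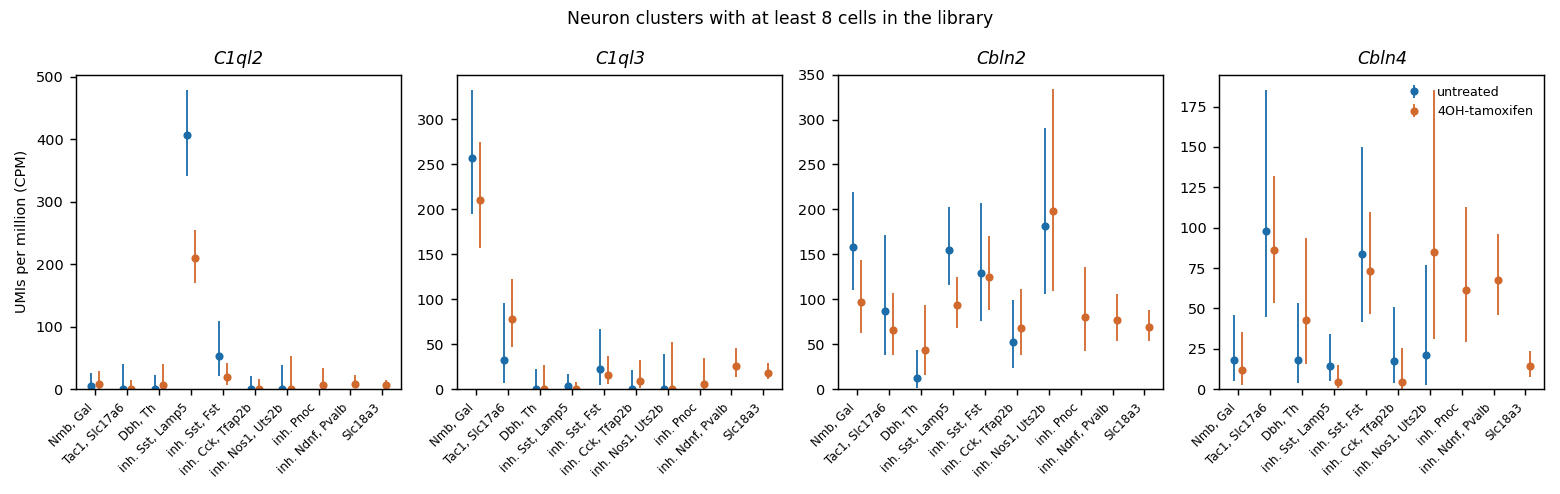
CPM (y axis, linear, scaled per panel) of 4 genes in neuron clusters (x axis, named by leading or marker genes, inh. for inhibitory-like) with at least 8 cells in a library, with 95% exact Poisson intervals. *C1ql2* peaks at 406 and 209 CPM in the *Sst* and *Lamp5* cluster, *C1ql3* in the *Nmb* and *Gal* cluster, and *Cbln4* is low in both of these.

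Single marker genes also divided the inhibitory-like cells, although the marker genes were among those used for clustering. *Sst* is a leading gene of both clusters compared above, so its split is not the same contrast. Cells with *Prox1*, a homeobox gene of some interneurons, had 4.83-fold (3.32 to 7.17) and 5.24-fold (3.54 to 7.81) more *C1ql2* CPM than cells without. Cells with *Sst*, the somatostatin gene, had 4.78-fold (3.17 to 7.44) and 2.40-fold (1.61 to 3.59) more *C1ql2*. *Cbln4* in *Sst* cells was 0.181 (0.0343 to 0.615) and 0.354 (0.183 to 0.642) of that in cells without. Cells with *Fst*, which encodes the activin inhibitor follistatin, had 6.41-fold (2.53 to 17.0) and 3.05-fold (1.79 to 5.06) more *Cbln4*, and 0.493 (0.268 to 0.842) and 0.230 (0.0617 to 0.607) of the *C1ql2*. In cells with *Reln*, the reelin gene, *C1ql2* was 2.75-fold (1.96 to 3.87) and 2.92-fold (1.98 to 4.31) higher. Cells with *Pvalb*, the parvalbumin gene, held 0 *C1ql2* UMIs in 6 untreated cells and 1 in 47 4OH-tamoxifen cells, and their *Cbln2* was 0.207 (0.0248 to 0.769) and 0.193 (0.0619 to 0.461) of the level without *Pvalb*. Cells with *Cck*, the cholecystokinin gene, held 0 *C1ql2* UMIs in 21 untreated and 3 in 55 4OH-tamoxifen cells. In the *Slc32a1* class the *C1ql2* ratios were 15.0 (6.30 to 43.2) and 4.57 (2.61 to 8.08) for *Prox1*, 2.55 (1.36 to 4.89) and 1.92 (1.10 to 3.41) for *Sst*, and 0.399 (0.138 to 0.947) and 0.106 (0.00264 to 0.617) for *Fst*. The *Cbln4* ratios there were 4.87 (1.65 to 16.05) and 2.62 (1.25 to 5.20) for *Fst*, and for *Sst* they were within counting error of 1 at 0.503 (0.1196 to 1.63) and 0.576 (0.269 to 1.16).

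**Figure D4:**
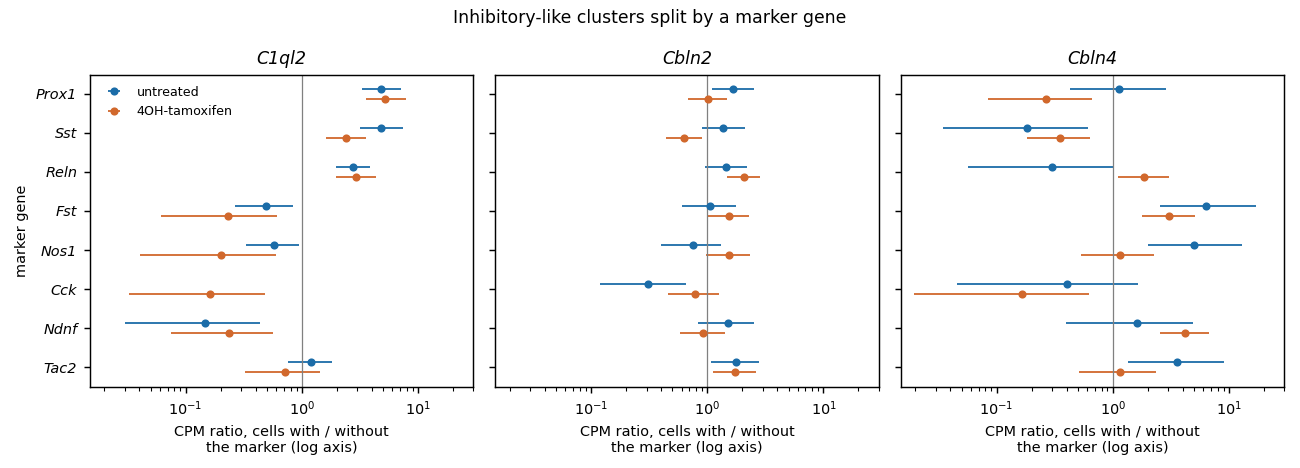
Ratio of CPM between inhibitory-like cells with and without a UMI of each marker gene (y axis) for *C1ql2*, *Cbln2* and *Cbln4* (x axis, log scale), with 95% exact conditional intervals, for the untreated (blue) and 4OH-tamoxifen (orange) libraries; ratios with 0 UMIs on a side are not drawn. *Prox1* and *Sst* cells lie to the right for *C1ql2*, at 4.83 and 5.24 for *Prox1*, and *Fst* cells to the right for *Cbln4*.

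*C1ql2* and *Cbln2* were found together in 26 untreated and 17 4OH-tamoxifen inhibitory-like cells, 63.4% and 28.8% of the cells with *C1ql2* and 60.5% and 16.5% of those with *Cbln2*. *Cbln2* was found in 43.9% and 26.7% of all inhibitory-like cells, so its share among *C1ql2* cells was near that of all cells with 4OH-tamoxifen. *C1ql2* and *Cbln4* met in 3 and 4 cells, 7.32% and 6.78% of the *C1ql2* cells and 25.0% and 10.8% of the *Cbln4* cells, beside *Cbln4* in 12.2% and 9.59% of all. In precursor-like cells *C1ql2* cells also had *C1ql1* in 97.8% and 86.4% of cases, beside 96.1% and 82.5% of all precursor-like cells.

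Members were also found in glutamatergic and monoamine neurons. A neuron cluster led by *Dbh* and *Cartpt*, with *Th*, had *C1ql1* at 248 (178 to 337) CPM in 8 untreated and 331 (242 to 441) CPM in 20 4OH-tamoxifen cells. *Dbh* and *Th* encode enzymes of catecholamine synthesis. *C1ql1* was found in 7 and 14 of those cells. A glutamatergic cluster led by *Tac1* and *Slc17a6* (11 and 51 cells) had 1 and 8 *C1ql1* UMIs, and the first cluster exceeded it 22.9-fold (3.88 to 925) and 10.1-fold (4.70 to 24.7). The same glutamatergic cluster had *Cbln4* at 97.8 (44.7 to 186) and 86.3 (53.4 to 132) CPM, near the level of the *Fst* inhibitory cluster. The *Dbh* cluster held 3 and 6 *Cbln4* UMIs, and the glutamatergic cluster exceeded it 5.38-fold (1.34 to 30.9) in the untreated library but within counting error with 4OH-tamoxifen (2.00-fold, 0.782 to 6.06). Its *C1ql3* was 32.6 and 78.1 CPM, while the *Dbh* cluster held 0 *C1ql3* UMIs in both libraries. The serotonergic-like cells, 3 untreated and 4 with 4OH-tamoxifen, had *C1ql1* at 597 and 324 CPM, but 1 cell held all 8 UMIs of the latter. Their *Cbln4* was 119 (14.4 to 431) and 283 (114 to 584) CPM, from 2 and 7 UMIs. A granule-like cluster with *Neurod1* and *Zic1* (3 and 25 cells) had the highest *Cbln1*, 462 (126 to 1182) and 309 (186 to 483) CPM from 4 and 19 UMIs. It also held 6 of the 17 *Cbln3* UMIs of the 4OH-tamoxifen library.

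Of 9 partner genes, all tested, 4 led in the same class in both libraries and 1 led at least 2-fold, against the 50.3% and 11.6% of all genes given above. That gene was *Nrxn3*, the neurexin that *C1ql2* and *C1ql3* products bind, at 995 and 1263 CPM in the *Slc32a1* class. *Adgrb3*, the receptor of the C1q-like family, had 61.4 and 168 CPM in *Nmb*, 181 and 158 CPM in *Slc32a1*, 122 and 140 in *Chat*, 109 and 120 in *Slc17a6*, 110.2 and 105 in *Aqp4* and 78.3 and 111 in *Pdgfra*, beside 12.2 and 11.4 in *C1qa*. *Grid1*, which encodes a receptor of cerebellins, had 36.3 and 43.0 CPM in *Pdgfra* cells, with higher values from few UMIs in *Nmb* (76.8 CPM, 24.9 to 179) and *Slc17a6* (62.5 CPM, 17.0 to 160) untreated cells. *Grik4*, a kainate receptor subunit, had its highest level in *Chat* cells at 81.6 and 112 CPM. *Dcc*, a netrin receptor, had at most 14 UMIs in any class and 0 in the untreated *Nmb*, *Slc32a1* and *Chat* classes, and *Neo1*, its relative, led in the *Mog* class at 92.4 and 114 CPM. Between libraries, 1 of 9 partners was past 2-fold, *Grid1* in the *Chat* class, against 9.14% of all genes. *Grid1* had 27.2 CPM from 2 untreated UMIs and 62.2 CPM from 20 4OH-tamoxifen UMIs, a ratio of 2.29 (0.555 to 20.2) that is within counting error of 1. Of 15 other synaptic organizer genes 14 were tested, 5 led in the same class in both libraries and 0 at least 2-fold, and 0 of 14 were past 2-fold between libraries. The complement genes *C1qa*, *C1qb* and *C1qc*, which share the C1q domain, all led in the *C1qa* class, with *C1qa* itself the gate.

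**Figure D5:**
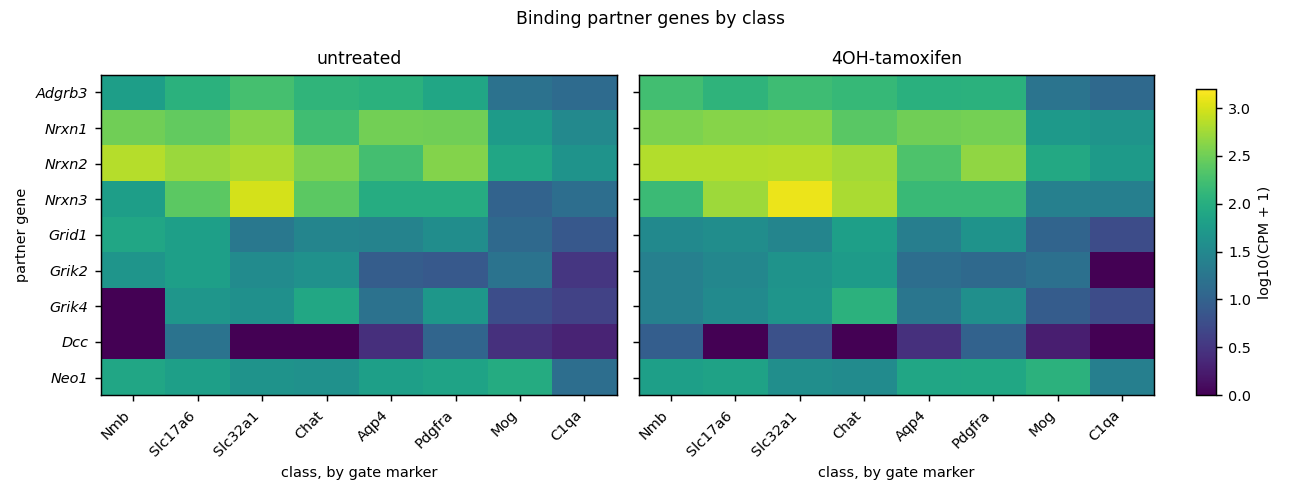
Level of 9 partner genes (y axis) in the 8 marker-gated classes (x axis) of each library, as log10 of CPM plus 1 (colour). Within a row *Nrxn3* is brightest in the *Slc32a1* class (995 and 1263 CPM), and *Neo1* in the *Mog* class (92.4 and 114 CPM); levels are not comparable between rows.

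The genes most alike to each member were found by Pearson's r of log2 of CPM plus 10 over 16 points, the 8 classes of both libraries, among 11728 genes. The classes of 1 library share its depth and free RNA, so r is a description. *C1ql1* was most like *Lmcd1* (r = 0.96), *Calcrl* (0.96) and *Lhfpl3* (0.95), a precursor marker. *C1ql2* was most like *Bcl11b* (0.90), *Asic4* (0.88) and *Adarb2* (0.88), a gene of some interneurons. *C1ql3* came closest to *Smc6*, *Fam58b* and *Mon1b* at lower r of 0.86, 0.84 and 0.83. *Cbln4* was most like *Chd3os* (0.95), *C1qtnf4* (0.94) and *Tmem91* (0.94).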

How the data were processed

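Single-cell libraries were made with 10x Chromium version 2 chemistry, which counts RNA near its 3′ end, so levels are not scaled by gene length and are compared between classes for 1 gene, not between genes. Per the labels, the authors made the reads with bcl2fastq 2.18.0.12 and counted them on mm10 with Cell Ranger 2.2.0, and deposited the count of UMIs per gene and barcode without normalization. The study's filters were applied again. Scrublet at its automatic threshold removed 6 untreated and 544 4OH-tamoxifen barcodes as doublets, and cells were kept at 800 genes or above with at most 50 hemoglobin UMIs and 20% mitochondrial UMIs. The deposited tables held 3767 barcodes and 18496942 UMIs, and 10241 barcodes and 34704167 UMIs. In the gates *C1qa* and *Nmb* needed 2 UMIs and other markers 1, and neuronal classes needed 3 UMIs over 4 neuronal genes.

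Clusters were built with scanpy 1.11.5 and leidenalg 0.10.2 on 25 principal components at a resolution of 0.7, without the 8 genes among the variable genes, and a name needed 3 detected markers. CPM has exact Poisson intervals, shares Clopper-Pearson intervals and ratios exact conditional intervals, all at 95%. Where a class held 0 UMIs the limit is that of 3 counts. Coding sequences were aligned with mafft 7.526. Splits by 1 marker gene were planned for the gated classes; classes from named clusters, the same splits within them and comparisons of clusters were chosen after seeing the data. The members, gene lists and rules were chosen with earlier results of these data known. Named genes are the members, the partner list, the markers and, for members with at least 10 UMIs in the leading class of each library, the 3 most alike. Cluster names and the genes that describe them were read from the clusters. The calculations were tested on simulated data. Some genes of the partner and marker lists are not reported here.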

Additional observations from a re-analysis of the deposited data

Results flagged for a closer look

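Signals appeared in barcodes that the main filters had removed, 428 untreated and 1683 4OH-tamoxifen barcodes, above the level that 3 counts would give. No comparison in the main setting used them, but some of the alternative settings below kept part of them. In the untreated library the removed barcodes held *C1ql1* at 48.3 CPM (228 in the filtered cells), *C1ql3* at 12.6 CPM (30.6), *Cbln2* at 20.5 CPM (22.4) and *Cbln4* at 3.97 CPM (2.77). In the 4OH-tamoxifen library they held *C1ql1* at 111 CPM (198), *C1ql2* at 7.10 CPM (14.1), *C1ql3* at 25.8 CPM (37.1), *Cbln1* at 4.06 CPM (3.8), *Cbln2* at 16.8 CPM (23.7) and *Cbln4* at 3.04 CPM (4.64). The *Cbln2* and *Cbln4* levels of the removed and the filtered untreated barcodes had overlapping intervals. Removed 4OH-tamoxifen barcodes include the doublets, and a split of the removed barcodes by cause was not tested.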

How the results depend on the processing

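No paired analysis was possible because each condition has 1 library. The count of members with the same leading class (4) ranged from 3 to 5 over 10 planned settings and named clusters, and 1 member, *C1ql1*, led at least 2-fold in each. *C1ql3* also led in 1 class in both libraries with at least 1200 genes, with 1 more UMI per gate marker, after thinning and under both cluster settings. Genes with under 20 UMIs in their leading class over both libraries could not be called past 2-fold in any setting. The count of members past 2-fold between libraries (1) was 0 with at most 10% mitochondrial UMIs, 0 after thinning to 2000 UMIs and 2 with no neuronal minimum. The member was *C1ql3*, but *C1ql2* when each gate needed 1 more UMI and under both cluster settings, and both genes with no neuronal minimum. The count of partners past 2-fold (1) was 0 with at most 10% mitochondrial UMIs, with 1 more UMI per gate marker, without cells holding *Dcn* or *Cldn5*, with Leiden clusters, with named Leiden clusters and after thinning. With at most 10% mitochondrial UMIs *C1ql3* in the *Nmb* class was 0 CPM (up to 197) in the untreated and 342 CPM (126 to 745) in the 4OH-tamoxifen library. These values rest on few UMIs, and the ratio between the libraries was not tested. The causes were not tested. Of single-gene values, 10 of 16 moved by more than counting error when a share needed 2 UMIs, 11 of 32 after thinning, 6 of 16 with at most 10% mitochondrial UMIs, 5 of 16 with named clusters, 3 of 16 with Leiden clusters and at most 2 of 16 under any other setting. Over all settings, *C1ql1* in the *Pdgfra* class ranged from 1239 to 1379 CPM untreated and from 813 to 1092 CPM with 4OH-tamoxifen. *C1ql2* in the *Slc32a1* class ranged from 99.4 to 188 CPM and from 64.6 to 101 CPM. *C1ql3* in the *Nmb* class ranged from 0 to 339.6 CPM and from 118 to 342 CPM, *Cbln2* there from 81.2 to 167 CPM and from 79.7 to 114 CPM, and *Cbln4* in the *Slc32a1* class from 23.3 to 53.5 CPM and from 42.7 to 62.1 CPM. *C1ql4* and *Cbln3* rest on few UMIs, and neuronal classes of 5 to 184 cells leave wide intervals.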
